A study of Mus musculus with 12 samples.

Results

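Kinesins are motor proteins that use ATP to move along or take apart microtubules. The genes described here are kinesin motor genes of the mouse, chosen by name alone as every row of the deposited table called Kif or Kifc with a number. Kinesin motors with other names, such as Cenpe, were not taken in. The name took in 44 of 29486 rows. They were sorted by known role into 13 mitotic kinesins, 17 transport kinesins and 10 other kinesins. The last 4 rows carry the name but hold no kinesin motor: Kif1bp, a protein that binds kinesins, the pseudogenes Kif4-ps and Kifc5c-ps, and the antisense transcript Kif16bos.

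Total mRNA was sequenced in 12 libraries of splenic B cells isolated with a kit from C57BL/6Babr mice of 8 to 12 weeks of age, with 4 biological replicates for each of 3 conditions. In the condition called LPS, cells were stimulated with lipopolysaccharide, a bacterial mitogen that makes B cells divide, at 10 µg/ml for 48 h. LE cells then also received 20 µM etoposide, which traps topoisomerase II on cut DNA, for 4 h. LEKU cells received 10 µM KU55933, an inhibitor of the DNA damage kinase ATM, 1 h before the same etoposide treatment. All groups were therefore LPS-activated cells without a genetic change. No group received KU55933 without etoposide, and the labels do not state whether the LPS cells stayed in culture for the further 4 h. Each condition used Illumina indexes that no other condition used, so that index and condition cannot be told apart.

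In a dividing cell, mitotic kinesins push the spindle poles apart, shorten microtubules, move chromosomes and organise the midzone where the cell is cut. Most of their genes are transcribed mainly in G2 and mitosis, so their mRNA is often taken as a mark of dividing cells. Transport kinesins instead carry vesicles, endosomes, mitochondria and ciliary cargo, and many are best known from neurons. In bulk mRNA, fewer cells of a kind and less mRNA per cell cannot be told apart.

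The 4 columns of a condition were proportional to each other in every gene (largest spread of the log2 ratio 2.8e-14), which is what a fitted condition mean times a library factor gives. The values hence hold no spread between replicates, and no test across libraries was possible for any result below. In the files the totals were, in units of 1000000 counts, 20.7 to 23.9 per library in LPS, 22.5 to 30.6 in LE and 20.4 to 25.1 in LEKU. Levels are scaled counts, the deposited values divided by a size factor, and a difference is the log2 ratio of level + 1 between conditions. A gene was followed where its level was at least 10 in one or more conditions, which held for 15596 genes. Counts of genes take a log2 difference of at least 2-fold, and smaller differences are given as values. Folds are ratios of the levels themselves, without the added 1, so that for low genes they exceed the fold of the log2 difference. The intervals given for folds are exact 95% intervals of counting error only, which leave out the variation between animals. The 8 B-cell markers, such as Cd79a, Ms4a1 and Blnk, all passed with levels of 891 to 31159. Their sum was 144728 in LPS, 78120 in LE and 86951 in LEKU. Of the 8, 4 were at least 2-fold lower in LE than in LPS (all genes: 5.78%) and none was higher (14.4%). The 4 were Cd22 (log2 -2.48), Pax5 (-2.29), Ebf1 (-2.24) and Blnk (-1.01). In LEKU against LPS 5 were lower (5.84%) and none was higher (11.3%). Of the T-cell, macrophage, red-cell and neuron lists, 2 of 8, 7 of 8, 3 of 6 and 3 of 6 genes passed. Cd3e and Cd4 stayed at or below a level of 1.80, whereas Lck, also of the T-cell list, reached 422. Mpeg1, of the macrophage list, reached 5105. The macrophage sum, most of it Mpeg1, was 5527, 4683 and 4264 in LPS, LE and LEKU. In LE against LPS 3 of the 7 macrophage genes past the filter were at least 2-fold higher (all genes: 14.4%) and none was 2-fold lower (5.78%). These were Cd14 by 2.04, Csf1r by 1.14 and Cd68 by 1.02 on the log2 scale, and the list's median was 0.49. Cd14 and Csf1r, with levels of 5.14 and 4.15 in LPS, passed the filter only through conditions with etoposide, so that they had to be higher there. The T-cell sum was 442, 322 and 309, most of it Lck, with levels of 422, 295 and 269. The part of such cells in the differences below was not tested.

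The promoters are shown first, because most mitotic members have letters in common whichever way their mRNA differed between conditions. RefSeq promoter windows (GRCm38.p6, 250 bases before to 50 after the start, gene strand) were given for 12 of 13 mitotic members and 9 of 15 transport members past the filter. The letters TTTGAA (or TTCAAA on the other strand) are those of the cell cycle gene homology region, an element of many G2 and mitosis genes, and CCAAT (or ATTGG) those of the CCAAT box. The first 3 stretches are Kif11 (chr19:37376312-37376411, plus strand), lower in LE, and Kif18b (chr11:102925095-102925194, minus strand) and Kifc1 (chr17:33890604-33890703, minus strand), both higher in LE. The last is Kif17 (chr4:138262181-138262280, plus strand), the transport member with the largest difference. Each runs from base -70 to base 30 around the start, with CCAAT or ATTGG and TTTGAA or TTCAAA in capitals.
Kif11: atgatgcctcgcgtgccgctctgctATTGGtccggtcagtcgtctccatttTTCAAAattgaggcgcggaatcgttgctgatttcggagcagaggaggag
Kif18b: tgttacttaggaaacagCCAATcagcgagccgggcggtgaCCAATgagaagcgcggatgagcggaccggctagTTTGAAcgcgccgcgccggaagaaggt
Kifc1: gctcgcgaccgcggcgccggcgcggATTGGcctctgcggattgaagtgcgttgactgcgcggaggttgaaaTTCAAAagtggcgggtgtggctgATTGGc
Kif17: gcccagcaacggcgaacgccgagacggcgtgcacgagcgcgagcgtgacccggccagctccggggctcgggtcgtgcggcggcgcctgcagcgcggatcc

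In Kif11 the TTCAAA began at base -19, in Kifc1 at base 2, and in Kif18b the TTTGAA began at base 4. Kif17 held neither word anywhere in its 300-base window. That window surrounds a start inside the gene, whose annotated span begins at chr4:138250435, and the bases around that first position were not examined. The stretches of 30 bases below show the TTTGAA or TTCAAA nearest the start in the other mitotic members that had one. They lie at chr9:61946780-61946809 for Kif23, chr9:122951050-122951079 for Kif15, chr7:127042420-127042449 for Kif22, chr19:34922353-34922382 for Kif20b, chrX:100626072-100626101 for Kif4, chr17:26917108-26917137 for Kifc5b, chr4:117178858-117178887 for Kif2c and chr1:136467608-136467637 for Kif14. Kif23, Kif22 and Kif2c lie on the minus strand and the others on the plus strand. As for Kif17, the windows of Kif2c, Kif14 and Kif4 lay inside the annotated span of the gene. The bases around the first position of those spans were not examined either.
Kif23: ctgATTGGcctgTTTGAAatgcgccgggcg
Kif15: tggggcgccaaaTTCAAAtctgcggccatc
Kif22: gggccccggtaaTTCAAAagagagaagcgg
Kif20b: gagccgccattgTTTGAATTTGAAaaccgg
Kif4: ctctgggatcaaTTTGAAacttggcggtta
Kifc5b: cggaggttgaaaTTCAAAagtgactggtgt
Kif2c: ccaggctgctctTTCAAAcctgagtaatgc
Kif14: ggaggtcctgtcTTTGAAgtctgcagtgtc

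TTTGAA in either reading was present in 11 of the 12 mitotic windows, against 20.2% of the 27025 genes with a window. Kif18a was the mitotic member without it. In 9 of the 12 a match lay between 60 bases before and 40 bases after the start, as in 5.90% of genes, a range chosen after the positions were seen. None of the 9 transport windows past the filter held it. CCAAT in either reading was in 8 of 12 mitotic and 3 of 9 transport windows, against 41.1% of genes. All 8 mitotic windows with CCAAT also held TTTGAA, and 8.97% of all genes held both. The word TTCGAA, which reads the same on both strands, was in none of the mitotic or transport windows and in 1.80% of genes. No matches in a member's window overlapped. Of the 9 mitotic members with a window and a lower level in LE, 5 held both words (Kif11, Kif14, Kif22, Kif23 and Kif4), 3 held TTTGAA alone (Kif15, Kif20b and Kif2c), and Kif18a held neither. All 3 members with a higher level in LE held both. The matches are descriptions of sequence, not known sites. The ends of 28 of the 33 member windows were found in a GENCODE transcript of the same gene and strand. Those of Kif11, Kif23, Kif2c, Kif5c and Kif7 were not found.

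In LE, 10 of the 13 mitotic kinesins had lower levels than in LPS and 3 had higher levels, and in LEKU all 13 had lower levels than in LE, most of them by less than 2-fold. In LE against LPS, 7 of 13 were at least 2-fold lower and 3 at least 2-fold higher, with a median log2 difference of -1.08. Over all 15596 genes, 5.78% were at least 2-fold lower, 14.4% at least 2-fold higher, and the median was -0.0023. In LEKU against LPS, 10 of 13 were lower and 1 was higher (all genes: 5.84% and 11.3%), with a median of -1.57. In LEKU against LE, 2 of 13 were lower and none was higher (all genes: 4.66% and 1.74%), and the log2 differences of all 13 lay between -1.17 and -0.20. The comparisons share libraries, so their counts are not independent of each other.

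The mitotic members followed 2 orders of level. In 10 of 13 mitotic members the level was highest in LPS, lower in LE and lowest in LEKU, an order shown by 21.0% of all genes. In the other 3 it was lowest in LPS, highest in LE and between them in LEKU, as in 25.6% of all genes. No mitotic member had its highest level in LEKU.

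**Figure D1:**
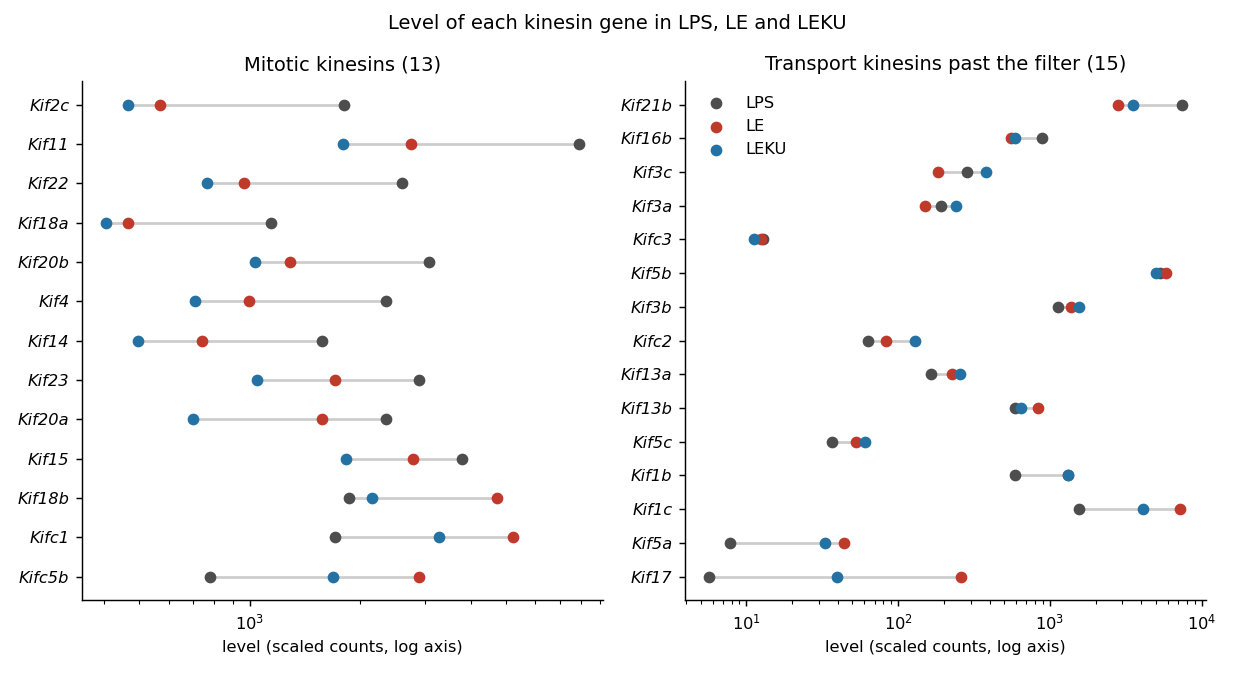
Level of the 13 mitotic kinesins (left) and the 15 transport kinesins past the filter (right) in scaled counts on a log axis, with 1 point for LPS (grey), LE (red) and LEKU (blue) and a line across their range. The mitotic panel has LPS highest in 10 genes and LE highest in Kif18b, Kifc1 and Kifc5b, whereas the transport panel has no common order.

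Kif11, the motor that slides spindle microtubules apart to separate the poles, lies at chr19:37376403-37421859 (GRCm38, plus strand). Its deposited values were 6501, 7213, 7503 and 6761 in the 4 LPS libraries, 2663, 2985, 3615 and 2894 in LE, and 1629.9, 1838, 1969 and 2001 in LEKU. The conditions did not overlap, and each group's spread is that of its library factors. Here and below, whether libraries overlap follows from the fitted means and these factors, and says nothing about replicates. As levels, these were 7902, 2752 and 1797, a log2 difference of -1.52 in LE (2.87-fold lower, interval 2.81 to 2.93) and -2.14 in LEKU (4.40-fold lower, 4.29 to 4.51). Kif11 had the highest level of the mitotic members in LPS, also per kb of exon (1059), and ranked 57th from the lowest of 15596 genes in LEKU against LPS. Kif15, which can stand in for Kif11 at the spindle, differed less: its levels were 3787, 2775 and 1822, with log2 differences of -0.45 in LE and -1.06 in LEKU.

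Kif2c, which takes microtubules apart at centromeres, had levels of 1801, 569.8 and 465 in LPS, LE and LEKU (log2 -1.66 and -1.95). It had the largest negative log2 difference of all members in LE, and ranked 151st from the lowest of all genes. Kif22, which pushes chromosome arms outward, had levels of 2599, 962 and 764 (log2 -1.43 and -1.76). Kif4, another motor that rides on chromosomes, had levels of 2356, 992 and 707 (log2 -1.25 and -1.73). Pdzd11, whose exons overlap 15.1% of those of Kif4 on the opposite strand, had log2 differences of -0.77 and -0.24. Kif18a, which dampens the movement of chromosomes at the metaphase plate, had levels of 1140.1, 467 and 405 (log2 -1.29 and -1.49), and LEKU lay only -0.20 below LE.

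The motors of the midzone and of cytokinesis divided in their response to etoposide alone. Kif20b and Kif14, which act in late cytokinesis, were at least 2-fold lower in LE, with levels of 3076, 1288 and 1032 (log2 -1.25 and -1.57) and of 1573, 742 and 495 (log2 -1.08 and -1.67). Kif23, the motor of the centralspindlin complex, was 1.69-fold lower in LE (1.64 to 1.74) and 2.77-fold lower in LEKU (2.67 to 2.87), with levels of 2887, 1709 and 1042. Kif20a, which brings the Aurora B kinase to the midzone, had deposited values of 1928, 2139, 2225 and 2005 in LPS, 1523, 1707, 2068 and 1655 in LE, and 634, 715, 766 and 779 in LEKU. LPS and LE overlapped as deposited, before division by the library factors, and the LEKU libraries lay below all others. After scaling, Kif20a was 1.49-fold lower in LE (1.44 to 1.54) and 3.35-fold lower in LEKU (3.21 to 3.50). LEKU lay 2.25-fold below LE (2.15 to 2.35), the largest such difference among the mitotic members. Its exons share 29.3% of their bases with Cdc23 on the opposite strand, and whether reads were counted by strand is not given in the sources used here, although the methods name a stranded kit. Cdc23 had levels of 1941, 2527 and 1989.8, higher in LE by 0.38 where Kif20a was lower.

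Kif18b, Kifc1 and Kifc5b stood apart from the other mitotic members. Kif18b, which shortens astral microtubules, lies at chr11:102905529-102925124 (minus strand). Its deposited values were 1528, 1695, 1764 and 1589 in LPS, 4556, 5107, 6185 and 4950.5 in LE, and 1956, 2206, 2363 and 2402 in LEKU. All LE libraries lay above all others, and the LEKU libraries lay just above those of LPS. Its log2 difference was 1.34 in LE (2.53-fold higher, 2.47 to 2.61) and 0.22 in LEKU (1.16-fold, 1.12 to 1.20), so that with the inhibitor Kif18b was near its LPS level. Its relative Kif18a, of the same kinesin family, was lower in both conditions.

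Kifc1, a motor that walks to the minus end and focuses the spindle poles, lies at chr17:33875659-33890661 (minus strand). It had deposited values of 1405, 1559, 1622 and 1461 in LPS, 5044, 5653, 6847 and 5480.3 in LE, and 2964, 3342, 3581 and 3639.6 in LEKU. The 3 conditions did not overlap, with LE highest and LPS lowest. The log2 difference was 1.61 in LE (3.05-fold higher, 2.97 to 3.14) and 0.94 in LEKU (1.91-fold, 1.86 to 1.97). Kifc5b, a close copy of Kifc1 at chr17:26917091-26932583 (plus strand), had levels of 779.6, 2891 and 1684 and log2 differences of 1.89 and 1.11. The copies share 631 stretches of 100 bases, 17.0% of those in Kifc1 and 16.6% of those in Kifc5b, so reads of this length from these parts cannot be assigned to either gene. Summed, the pair had levels of 2488, 8103 and 4953 and log2 differences of 1.70 and 0.99. Their promoter windows were equal at 87.9% of 272 bases when aligned without gaps.

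**Figure D2:**
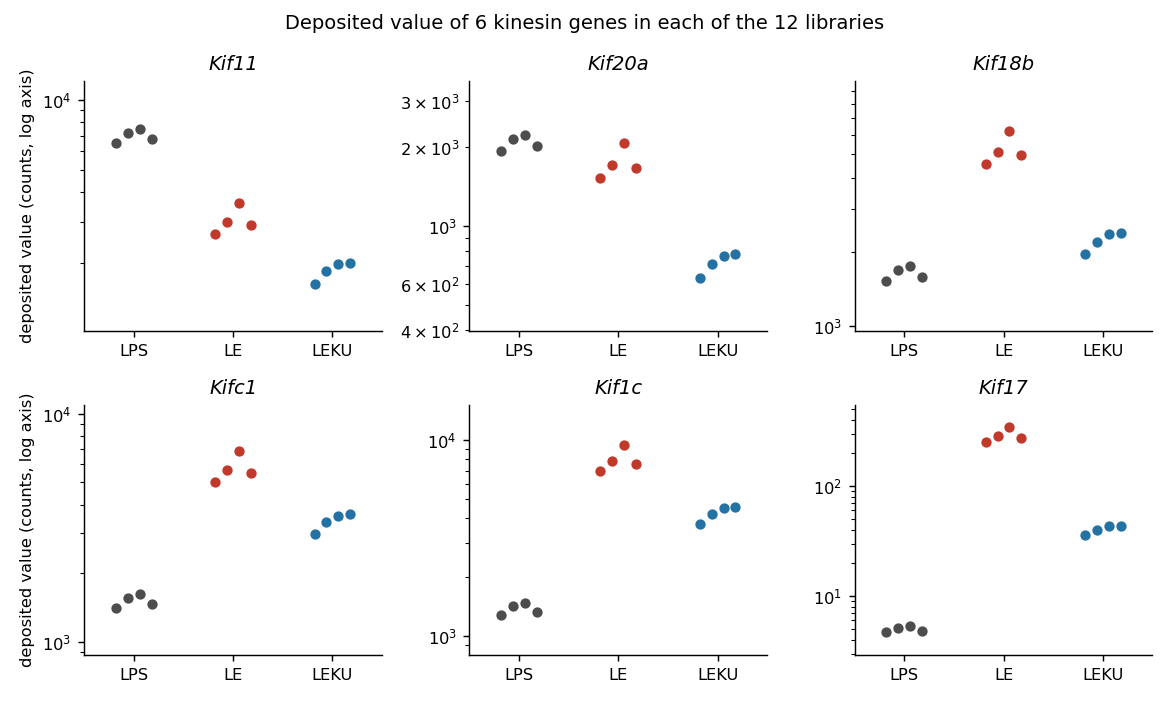
Deposited value of Kif11, Kif20a, Kif18b, Kifc1, Kif1c and Kif17 in each of the 12 libraries (1 point a library, counts on a log axis), by condition. Within a condition the points differ only by the library factor. Kif11 and Kif20a are lowest in LEKU, and Kif18b, Kifc1, Kif1c and Kif17 are highest in LE.

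Compared per length, the 3 higher members offset the 10 lower ones in the sum of LE. The summed level per kb of exon of the mitotic kinesins was 5620 in LPS, 5637 in LE and 3344 in LEKU. The share of Kif18b, Kifc1 and Kifc5b in this sum was 21.9%, 64.3% and 60.3% in the same order. The other 10 summed to 4389, 2011 and 1328 per kb. In LPS the highest level per kb was that of Kif11, whereas in LE it was that of Kifc1 (1527), followed by Kif18b (1318) and Kifc5b (781).

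**Figure D3:**
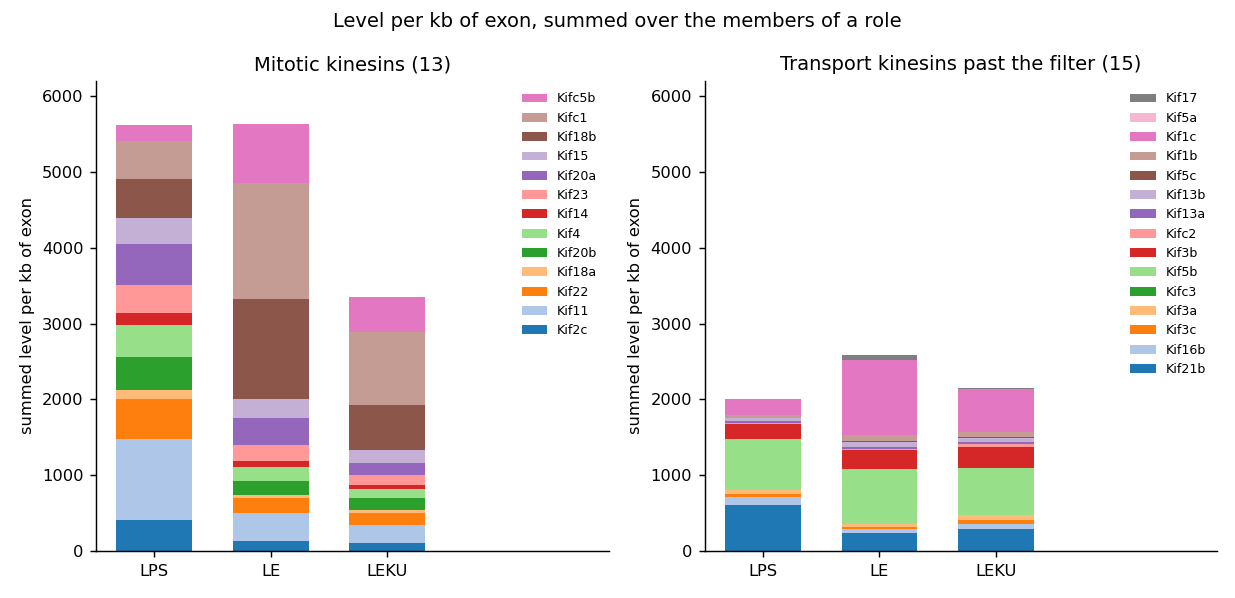
Level per kb of exon summed over the 13 mitotic kinesins (left) and the 15 transport kinesins past the filter (right) in each condition, stacked by gene from 0. The mitotic bars of LPS and LE are of nearly the same height (5620 and 5637) with a different make-up, and the LEKU bar is lower (3344).

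The transport kinesins had no common direction. Of 17, 15 passed the filter. The highest levels of the others were 2.68 for Kif1a and 3.68 for Kif21a. In LE against LPS, 1 of the 15 was at least 2-fold lower and 4 were at least 2-fold higher, with a median log2 difference of 0.39. In LEKU against LPS these counts were 1 and 5 with a median of 0.45 (all genes: 5.84% and 11.3%), and in LEKU against LE 1 and 1 with a median of 0.07 (all genes: 4.66% and 1.74%). Kif17 and Kif5a passed the filter only through the conditions with etoposide, so that they had to be higher there. Among the 13 with a level of at least 10 in every condition, 1 was lower and 2 were higher in LE, beside 5.78% and 14.4% of all genes. The counts of these 13 were 1 and 3 in LEKU against LPS, and 0 and 1 in LEKU against LE.

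**Figure D4:**
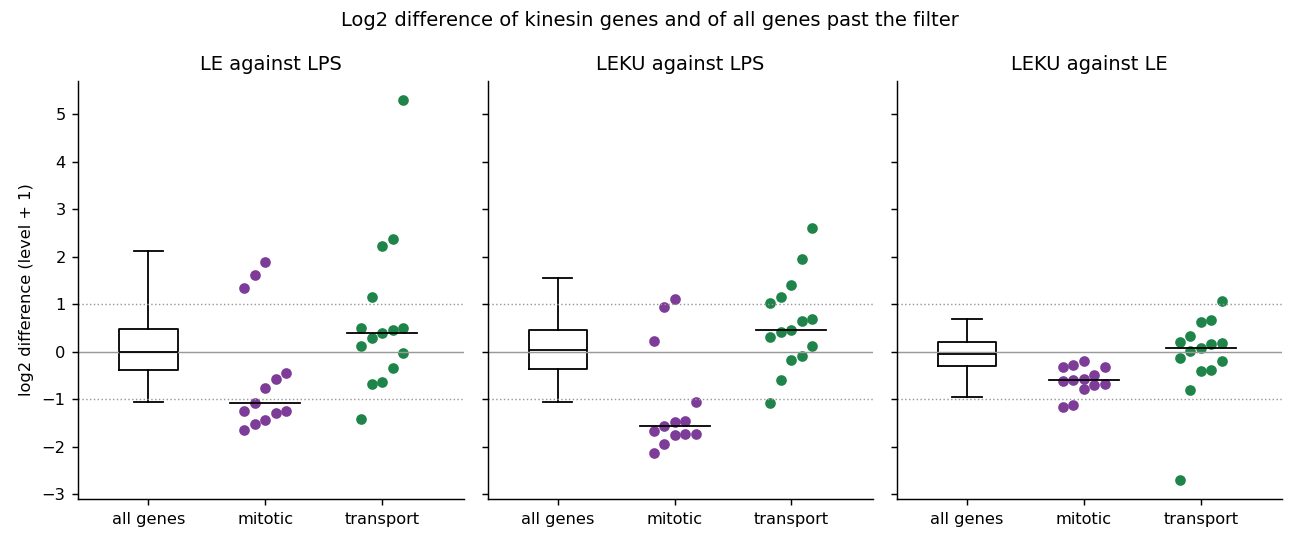
Log2 difference (level + 1) of all 15596 genes past the filter (box from the 25th to the 75th percentile with the median, whiskers from the 5th to the 95th percentile), of the 13 mitotic and of the 15 transport kinesins (points, with a line at the median) in the 3 comparisons. Dotted lines mark 2-fold. Mitotic kinesins lie mostly below 0 with a group of 3 above in LE, and the top transport point in LE is Kif17 at 5.30.

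Kif17, a kinesin-2 motor of dendrites and cilia at chr4:138250435-138301967 (plus strand), had the largest difference of all members. Its deposited values were 4.66, 5.17, 5.38 and 4.85 in LPS, 253, 283, 343 and 275 in LE, and 35.6, 40.2, 43.1 and 43.8 in LEKU. Every LE library lay above every LEKU library, a separation set by the fitted means and the library factors, not by replicates. The levels of 5.67, 261 and 39.3 gave log2 differences of 5.30 in LE (46.1-fold higher, 29.8 to 76.0) and 2.60 in LEKU (6.93-fold, 4.37 to 11.7), and LEKU lay 6.65-fold below LE (5.62 to 7.86). It ranked 21st from the highest of 15596 genes in LE against LPS. The fold rests on a sum of 20.1 fitted reads in the 4 LPS libraries. Sh2d5, which overlaps 1.61% of the exon bases of Kif17 on the same strand, had levels of 69.9, 77.8 and 44.5. The neuron markers summed to 204, 127 and 133. Most of this was Map2, with levels of 146, 78.3 and 44.3, whereas Tubb3 had levels of 38.5, 31.4 and 68.3, and Rbfox3, Syt1 and Snap25 were at or below 3.16 in each condition. The 6 red-cell markers summed to 217, 186 and 117. The part of such cells in the level of Kif17 was not tested.

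The kinesin-3 motors Kif1b and Kif1c, which carry vesicles, were both higher with etoposide. Kif1c, at chr11:70700548-70731964 (plus strand), had deposited values of 1280.5, 1421, 1478 and 1332 in LPS, 6988, 7832, 9486 and 7593 in LE, and 3727, 4203, 4503 and 4577 in LEKU. Again the conditions did not overlap and LE was highest. It was 4.64-fold higher in LE (4.51 to 4.78) and 2.64-fold higher in LEKU (2.56 to 2.72). In LE it had the highest level of the transport members, also per kb (992), and made up 38.5% of their summed level per kb against 10.6% in LPS. Kif1b had levels of 592, 1305 and 1309, so that it was 2.20-fold higher in LE (2.10 to 2.32) and did not differ with the inhibitor beyond counting error (LEKU over LE 1.00, 0.966 to 1.04). The other kinesin-3 motors, which move endosomes, stayed within 2-fold: Kif13a had levels of 165, 225 and 257, Kif13b of 592, 835 and 643, and Kif16b of 887, 556 and 585.

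Kif21b, which restrains microtubule growth in immune cells and neurons, was the transport member at least 2-fold lower in LE and in LEKU than in LPS. It lies at chr1:136131389-136177998 (plus strand), and its deposited values were 6130, 6800.4, 7074 and 6374 in LPS, 2709, 3037, 3678 and 2944 in LE, and 3187, 3594, 3851 and 3914 in LEKU. Every LPS library was above every library with etoposide, and LE and LEKU overlapped as deposited. The level was 2.66-fold lower in LE (2.60 to 2.72) and 2.12-fold lower in LEKU (2.08 to 2.16), and LEKU lay 1.26-fold above LE (1.23 to 1.29). Kif21b had the highest level of the transport members in LPS (7451), though per kb it came after Kif5b (612 against 668).

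The conventional kinesins of the Kif5 group carry many cargoes through their light chains. Kif5b, the form found in most cells, differed little between conditions, with levels of 5332, 5778 and 5002 and log2 differences of 0.12 and -0.09. The neuronal forms were low: Kif5c had levels of 36.8, 52.7 and 60.2. Kif5a had levels of 7.78, 44.2 and 32.9, 5.67-fold higher in LE (3.74 to 8.62) and 4.23-fold higher in LEKU (2.75 to 6.48).

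The kinesin-2 genes Kif3a and Kif3c had their lowest level in LE and their highest in LEKU, within 2-fold of LPS in both. Kif3a had levels of 193, 151 and 240 (log2 -0.35 and 0.31), and Kif3c of 286, 182 and 379 (log2 -0.65 and 0.41). Kif3c was 2.08-fold higher in LEKU than in LE (1.91 to 2.27), the only transport member past 2-fold in that direction. Kifap3, the adaptor that joins kinesin-2 motors to cargo, had the same order with levels of 199.7, 149 and 244. Kif3b, also a kinesin-2 gene, had levels of 1131, 1376 and 1543. The antisense gene 1110002L01Rik covers 35.3% of the exon bases of Kif3c and had levels of 269, 290.0 and 265. Of the minus-end motors, Kifc2 had levels of 63.4, 83.4 and 130 (2.04-fold higher in LEKU, 1.74 to 2.40), and Kifc3 of 12.9, 12.6 and 11.3, with intervals that span 1 in all comparisons.

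Of the 10 other kinesins, 5 passed the filter and none was 2-fold apart in LE (all genes: 5.78% lower and 14.4% higher). In LEKU against LPS none was 2-fold lower and 1 was higher (all genes: 5.84% and 11.3%). With 5 genes, such counts say little beside these shares. Kif24, which keeps centrioles from growing cilia, had levels of 1260.4, 874 and 736, and Kif2a, a relative of Kif2c that also takes microtubules apart, of 1210.2, 948 and 958. Kif9 and Kif19a, which act in cilia, had levels of 161, 90.2 and 147 and of 85.1, 117 and 81.6. Kif7, a regulator of Hedgehog signalling, had levels of 17.5, 21.0 and 46.6 and was 2.66-fold higher in LEKU than in LPS (1.99 to 3.61). Below the filter were Kif26a (highest level 7.36), Kif27 (3.41), Kif26b (1.30), Kif6 (1.01) and Kif12 (0.087). Of the rows without a motor, Kif1bp had levels of 669, 695 and 827, and the highest levels were 6.35 for Kifc5c-ps, 1.44 for Kif16bos and 0.087 for Kif4-ps.

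The genes whose products work with the mitotic motors had lower levels as well. The list of these spindle partners includes Cenpe, which is itself a mitotic kinesin under another name. Its log2 differences were -0.74 in LE and -1.58 in LEKU against LPS. Of 17 spindle partners, 9 were at least 2-fold lower in LE against LPS and none was 2-fold higher (all genes: 5.78% and 14.4%), with a median of -1.22. In LEKU against LPS, 14 were lower and none was higher (all genes: 5.84% and 11.3%), with a median of -1.58. In LEKU against LE none was 2-fold apart (all genes: 4.66% lower and 1.74% higher), with a median of -0.42. The lowest in LE were Nusap1, which bundles spindle microtubules (-1.89), and the kinase Aurka (-1.84). The highest were Birc5, of the Aurora B complex (-0.36), and Ckap2, which binds spindle microtubules (0.39). Prc1, which binds Kif4 at the midzone, and Racgap1, the partner of Kif23, had log2 differences of -1.64 and -1.57 in LE. No spindle partner was 2-fold higher in LE as Kif18b, Kifc1 and Kifc5b were.

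Dynein is the motor that walks the other way on microtubules, toward the minus end. Of 19 transport partners, 1 was 2-fold lower and 1 was 2-fold higher in LE (all genes: 5.78% and 14.4%), with a median of 0.05. Trak1, a mitochondrial adaptor (-1.07), and Arl8b (-0.49) were lowest, and the light chain Klc3 (0.64) and Arl8a (1.38) were highest. Arl8a and Arl8b are the paired GTPases that link lysosomes to kinesins, so that these near relatives lay at opposite ends of the list. Of the 18 dynein and dynactin genes past the filter, none was 2-fold apart in any of the 3 comparisons. Of all genes, 5.84% were lower and 11.3% higher in LEKU against LPS, and 4.66% and 1.74% in LEKU against LE. The log2 differences of the dynein and dynactin genes in LE ranged from -0.64 (Pafah1b1) and -0.36 (Dctn6) to 0.64 (Dctn4) and 0.73 (Dctn1). Of 12 tubulins, which make the track itself, Tuba4a (-0.78) and Tuba1a (-0.69) were lowest in LE, and Tubb4a (0.41) and Tubb6 (4.25) highest. In LE none was 2-fold lower and 1 was 2-fold higher. In LEKU against LPS 3 were 2-fold lower, Tuba1c (-1.60), Tuba1b (-1.54) and Tuba1a (-1.02), and 1 was higher (all genes: 5.84% and 11.3%). In LEKU against LE 2 were lower and 1 was higher (all genes: 4.66% and 1.74%). Tubb6 had levels of 201, 3826 and 1591.

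**Figure D5:**
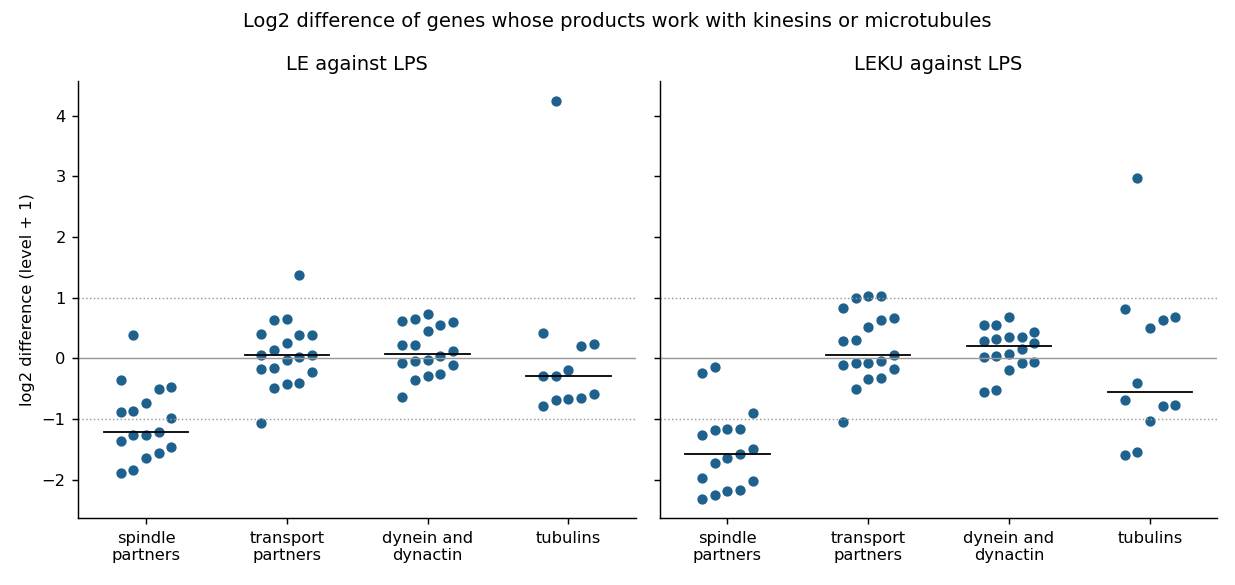
Log2 difference (level + 1) of the genes past the filter in 4 lists, spindle partners (17), transport partners (19), dynein and dynactin (18) and tubulins (12), in LE (left) and LEKU (right) against LPS. Each point is a gene, the line is the list's median and the dotted lines mark 2-fold. Spindle partners lie mostly below 0, dynein and dynactin lie within 2-fold, and the high tubulin is Tubb6.

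Some calls were close to the 2-fold line and moved with the scaling of the libraries. Over the 5 other scalings tried, Kifc1 in LEKU against LPS ranged from 0.92 to 1.16, Kif15 from -1.08 to -0.83, Kif21b from -1.10 to -0.75 and Kifc2 from 0.74 to 1.24. In LE against LPS, Kif18a, Kif20b, Kif4 and Kif14 came to -0.97, -0.94, -0.93 and -0.76 with the columns as deposited, and Kif3c in LEKU against LE ranged from 0.96 to 1.10. The signs for Kifc3, for Kif5b in LEKU against LPS, for Kifc2 in LE against LPS, and for Kif16b and Kif1b in LEKU against LE turned under at least 1 scaling. No mitotic member changed sign.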

How the data were processed

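Per the labels, 12 mRNAseq libraries of mouse splenic B cells (Illumina TruSeq mRNA kit, single-end reads of 100 bases) were made in 3 conditions. The authors trimmed reads (cutadapt 1.2.1, Trim Galore), mapped them with TopHat2 2.0.12 to GRCm38, counted them with HTSeq on Ensembl genes and fitted DESeq2 1.6.3. The methods name a stranded version of the kit, and the strand setting of the counting is not given in the sources used here. The authors deposited a signal for each gene and library, named normalized counts, and in it every library of a condition carries 1 fitted mean multiplied by its own factor. In the version the authors used, DESeq2 by default moderates fold changes toward 0, most for low counts. Their own comparisons (mean, fold change, standard error, statistic, p and adjusted p) were not used, except that the deposited mean signal served to recover the authors' scaling.

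Values were divided by median-of-ratios size factors (0.823 to 1.31, from genes with a mean of at least 10) and averaged by condition in Python 3.11.15 with numpy 2.4.6, pandas 2.3.3, scipy 1.17.1 and matplotlib 3.10.9. Differences used a pseudocount of 1, and genes with a level of at least 10 in a condition were kept. The planned limma test was dropped, since the columns hold no replicate values, and genes were called at 2-fold with no p. Counting intervals (Clopper-Pearson, 95%) took the 4 summed columns as reads, which need not be independent molecules. Exon lengths, positions and overlaps came from GENCODE M21. The scaling was tested on simulated data.

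All mitotic and transport members past the filter were named with levels, and the 2 highest and 2 lowest of each partner list in LE against LPS. Prc1, Racgap1, Cenpe, Kifap3 and the cell markers named were added with their values seen. Members and lists were chosen with earlier results of these data known. Promoter windows were those of RefSeq. Kif2b and Kif28 were not analysed here. Other scalings, pseudocounts, filters, a 1.5-fold call and other lists were tried as alternatives.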

Additional observations from a re-analysis of the deposited data

How the results depend on the processing

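No paired analysis was possible because the columns of a condition are 1 fitted mean times a library factor, and for the same reason leaving out each replicate in turn was not run: both would return the same levels. Of 234 counts and medians over the mitotic and transport kinesins under 13 alternatives, 214 stayed close to the value reported (counts within 1.5 times, medians of the same sign and within 1.5-fold), and no called value changed sign. The count of mitotic kinesins at least 2-fold higher in LEKU against LPS, 1 as reported, became 2 with TMM factors, library totals, quantile normalization and the columns as deposited (Kifc1 being added), and 0 without Kifc5b. The single transport kinesin 2-fold lower in LEKU against LPS, Kif21b, was lost (0) with library totals, quantile normalization and the columns as deposited. With the columns as deposited, mitotic kinesins 2-fold lower in LE were 3 in place of 7, transport kinesins 2-fold higher in LEKU against LE were 0 and their median there was -0.019. That setting moves the median of all genes to 0.32 in LE, 0.26 in LEKU and -0.14 in LEKU against LE, and library totals move it to 0.11 in LE and 0.20 in LEKU. A filter of 10 in every condition, which removes Kif17 and Kif5a, left 2 transport kinesins higher in LE, 3 higher in LEKU and 0 lower in LEKU against LE. At a 1.5-fold call, 2 mitotic kinesins were higher in LEKU against LPS and 7 lower in LEKU against LE. At that call, transport kinesins that were lower numbered 3 in LE, 2 in LEKU and 2 in LEKU against LE, and 3 were higher in LEKU against LE. The share of all genes past 1.5-fold was not computed, so these counts cannot be set against a background. A scaling from the authors' mean count, added after seeing the data, moved none of these. With 20.1 fitted reads in LPS, the difference of Kif17 depends on the pseudocount (4.64 with 5), and genes near the filter are limited by depth.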
